A study of Mus musculus with 5 samples.

Results

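The islet hormone genes Ins1, Ins2, Iapp, Gcg, Sst, Ppy and Pyy and the secretory granule genes Chga and Chgb were followed through single cells of advanced mouse pancreatic tumours. These 9 genes were chosen by name. Both deposited tables list Ins1, Ins2, Iapp and Pyy (4 of 9), while the tables hold 12579 (KPPC) and 31053 (KPPCN) genes in all. The other 5 (Gcg, Sst, Ppy, Chga and Chgb) are listed for KPPCN only and are described there alone.

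Tumours came from mice aged 7 to 8 weeks, and suspensions were depleted of dead cells and of CD45-positive cells before droplet capture. KPPC is the usual name for a genetically engineered pancreatic carcinoma model that includes loss of Trp53 in the pancreatic Cre lineage, and KPPCN mice lack Nsdhl, a cholesterol synthesis enzyme, in addition. Both groups therefore share the alleles of the KPPC model, and the labels give only the short names, with no Cre driver. The labels describe 3 mice of each genotype, and 3 KPPC libraries (C3, D3 and H2) and 2 KPPCN libraries (1 and 2) were analysed.

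Insulin is made by beta cells of the pancreatic islets, and mice carry both Ins1, which lies on another chromosome and arose as a retrotransposed copy, and Ins2. Iapp encodes amylin, which beta cells store and release together with insulin. Glucagon (Gcg), somatostatin (Sst) and pancreatic polypeptide (Ppy) mark alpha, delta and PP cells, and chromogranins A and B (Chga, Chgb) are structural proteins of the granules that hold these hormones. Peptide YY (Pyy) is a relative of Ppy that is made by enteroendocrine L cells of the gut and by some islet cells. In droplet data, transcripts set free by broken cells also enter droplets, so a few hormone transcripts can appear in cells that do not make the hormone.

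In GRCm38, Ins1 lies at chr19:52264297-52265476 on the plus strand and Ins2 at chr7:142678656-142743381 on the minus strand, a span that covers all its annotated transcripts. Iapp lies at chr6:142298423-142303961 (plus strand). Pyy, at chr11:102106676-102107832, and Ppy, at chr11:102099930-102101319, are neighbours on the minus strand. Also on the minus strand are Gcg at chr2:62474530-62483650 and Sst at chr16:23889573-23890958, and on the plus strand Chga at chr12:102554969-102565028 and Chgb at chr2:132781278-132795079. The ends of the insulin coding sequences are shown because Ins1 and Ins2 are near copies whose reads could be exchanged, and the ratio of the pair is used below. Each line holds the last 66 coding bases, the A chain and the stop codon, read from GENCODE transcripts, with the differing bases in capitals:
Ins1: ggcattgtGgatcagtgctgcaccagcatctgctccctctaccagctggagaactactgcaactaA
Ins2: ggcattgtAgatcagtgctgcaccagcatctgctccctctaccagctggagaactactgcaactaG
The stretches differ at 2 of 66 bases. Of the 965 windows of 98 bases (the read length) in the Ins1 transcript, 0 occur exactly in the Ins2 transcript, 77 lie within 5 mismatches of a window there, and the closest lies within 2. Some reads could therefore have been assigned to either gene, and the sources used here do not say how the counting treated them. The closest 98-base windows of Pyy and Ppy differ by 40 bases.

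The 250 bases before the start are shown for Ins1 and Pyy, since these genes had different patterns across the tumour cells. They are from RefSeq (GRCm38.p6), for Ins1 chr19:52264047-52264296 on the plus strand and for Pyy chr11:102107833-102108082 on the minus strand, with matches to TAAT or CANNTG on either strand in capitals:
Ins1: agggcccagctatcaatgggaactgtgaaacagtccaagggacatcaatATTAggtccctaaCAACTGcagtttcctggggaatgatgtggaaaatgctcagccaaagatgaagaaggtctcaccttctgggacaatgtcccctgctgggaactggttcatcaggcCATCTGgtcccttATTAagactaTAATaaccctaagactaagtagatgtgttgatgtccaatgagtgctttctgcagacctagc
Pyy: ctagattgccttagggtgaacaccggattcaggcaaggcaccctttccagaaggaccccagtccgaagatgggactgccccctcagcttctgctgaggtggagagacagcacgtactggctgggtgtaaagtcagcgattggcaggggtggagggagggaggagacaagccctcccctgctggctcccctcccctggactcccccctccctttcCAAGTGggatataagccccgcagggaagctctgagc
TAAT is the core bound by homeodomain factors such as Pdx1, and CANNTG is the E-box. Ins1 held 3 TAAT and 2 CANNTG matches, Iapp held 5 and 3, and Pyy held 0 and 1. Of 32851 promoter windows of this length, 54.9% held a TAAT and 66.2% a CANNTG match. These matches describe the letters in the window and nothing more.

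After filtering, 3769, 3272 and 2489 cells of KPPC C3, D3 and H2 and 5371 and 2010 cells of KPPCN 1 and 2 were used. Median depth per cell was 17345, 19006 and 17865 unique molecular identifiers (UMIs, counted transcripts) for C3, D3 and H2. It was 2187 for KPPCN 1, which stands apart as shallow, and 21719 for KPPCN 2. KPPCN 1 also differed in make-up: 1325 of its 5371 cells were classed as T/NK-like, with a median of 1843 UMIs. C3, D3 and H2 held 43, 13 and 7 such cells and KPPCN 2 held 1. A cluster without a name, led by Fcmr, H2-Aa and Cd74, held another 1086 barcodes of KPPCN 1. The part of this make-up in its depth, cell shares and all-cell levels was not tested. Levels are given as CPM, UMIs per 1000000 UMIs. Between 6 and 15 barcodes of each library also occur in another library. The KPPC table had been cut by gene within each library: the rarest gene above 0 was present in 61, 37 and 47 cells of C3, D3 and H2, whereas for KPPCN the 2 libraries list 6729 and 6940 genes present in 1 to 36 cells. Nsdhl did not check the labels: its level in epithelial-like cells was 29.8, 23.5 and 27.7 CPM in KPPC, and 28.6 and 32.6 CPM (25 and 18 UMIs) in KPPCN, and the sources used here do not say whether a tag near the 3′ end reads the deleted part. Cells were grouped without the 9 genes. One cluster of 31 cells was called endocrine-like from Isl1, Cpe and Cplx2, the 3 of 16 endocrine markers that both tables list, and its leading genes were Ttr, Syt13 and Ero1lb. The 14 epithelial markers together stood at 2422 to 11166 CPM in its cells, by library, against 24110 to 30903 CPM in epithelial-like cells. At a coarser clustering these cells fell in an epithelial-like cluster, and at a finer one in a cluster without a name. A pair of clusters led by Krt17, Cldn4 and Epcam and by Tff2, Tff1 and Gkn1 was called epithelial-like with 525, 795 and 579 members in C3, D3 and H2, 85 in KPPCN 1 and 27 in KPPCN 2. Tumour cells and residual normal duct cells within it cannot be told apart, since no mutation was read.

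Insulin transcripts were concentrated in 13 cells among the 16911. KPPC C3 and H2 held 5 such cells each, D3 held 1, KPPCN 2 held 2 and KPPCN 1 held 0. The term insulin-high was set, after the values were seen, at 100 or more UMIs of Ins1 and Ins2 together. The lowest of the 13 had 2553 insulin UMIs and the highest cell outside had 76, in D3, followed by one with 18. All 13 were in the endocrine-like cluster, although insulin had not been used to form it. They held 97.2%, 95.2% and 98.6% of all insulin UMIs of KPPC C3, D3 and H2 and 97.6% of those of KPPCN 2.

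Within the 13 cells, insulin made up 10.3 to 59.9% of all UMIs (median 48.0%). The total per cell ranged from 6526 to 76759 UMIs, with a median of 29070. The top cell of H2 held 13123 Ins1, 26678 Ins2 and 5744 Iapp UMIs, and the lowest of C3 held 904, 2185 and 300. Iapp, the amylin gene, was present in 13 of 13 at 300 to 6171 UMIs. The Ins1 share of insulin transcripts varied from cell to cell, between 27.4 and 67.0% (median 40.3%).

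**Figure D1:**
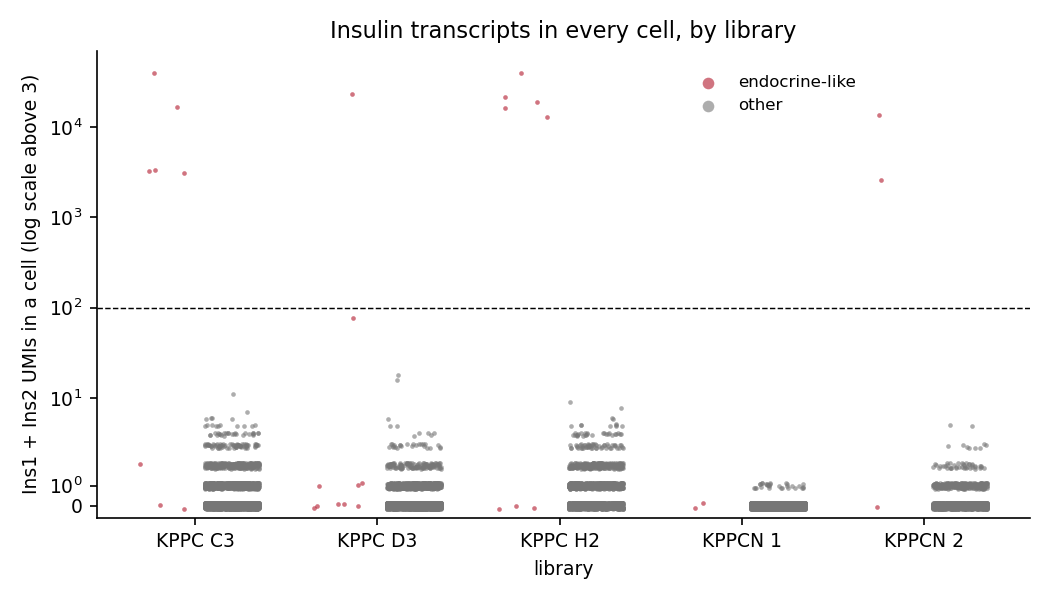
Each point is a cell; the vertical axis gives its Ins1 and Ins2 UMIs together (log scale above 3) and the horizontal axis the library, with small random shifts so that points can be seen. Red points are endocrine-like cells and grey points all others; the dashed line is the threshold of 100 UMIs. The 13 cells above the line hold 2553 or more UMIs, and outside the endocrine-like cluster the highest cell holds 18.

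Outside the endocrine-like cluster, insulin was present at a low level in nearly every class. Of 3761 such cells in KPPC C3, 905 held 1 insulin UMI, 276 held 2 and 115 held 3 or more. The highest single cell had 11 UMIs in C3, 18 in D3, 9 in H2, 1 in KPPCN 1 and 5 in KPPCN 2. The level over all these cells was 23.4, 14.5 and 30.5 CPM for KPPC C3, D3 and H2 in turn, 1.13 in KPPCN 1 and 7.53 in KPPCN 2. The library without an insulin-high cell, KPPCN 1, had the lowest level and was also the shallowest. Among the others, D3 with 1 insulin-high cell stood above KPPCN 2 with 2. The source of these UMIs was not tested.

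The counting interval of most classes held the level of their library. The exact Poisson interval (95%, counting error only) of a class held its library's level in 8 of 10 classes of C3, 7 of 7 of D3, 8 of 8 of H2, 6 of 6 of KPPCN 1 and 3 of 4 of KPPCN 2, counting classes of at least 20 cells. The exceptions were all above it: T/NK-like (58.8 CPM, 7 UMIs) and mesothelial-like cells (28.7 CPM) in C3, and the epithelial-like cells of KPPCN 2. These counts do not show nearness, since intervals of small classes are wide. The level also includes the class itself, and cells without a name are counted as a class. In KPPCN 1, mesothelial-like, T/NK-like and neutrophil-like cells had 0 insulin UMIs, with upper limits of 16.4, 1.37 and 14.6 CPM. Epithelial-like cells, the class of the tumour epithelium, carried 23.9 insulin CPM in C3 against 24.2 in fibroblast-like cells of the same library. In D3 the pair was 14.5 and 14.8, and in H2 it was 30.1 and 34.6. In KPPCN 1 it was 3.44 and 1.90, from 3 and 11 UMIs. In KPPCN 2 it was 18.1 (interval 8.69 to 33.3) and 7.47 (5.11 to 10.5), from 10 and 32 UMIs. Epithelial-like levels were above the fibroblast-like level in the KPPCN libraries, with overlapping intervals, and below it in the KPPC libraries.

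**Figure D2:**
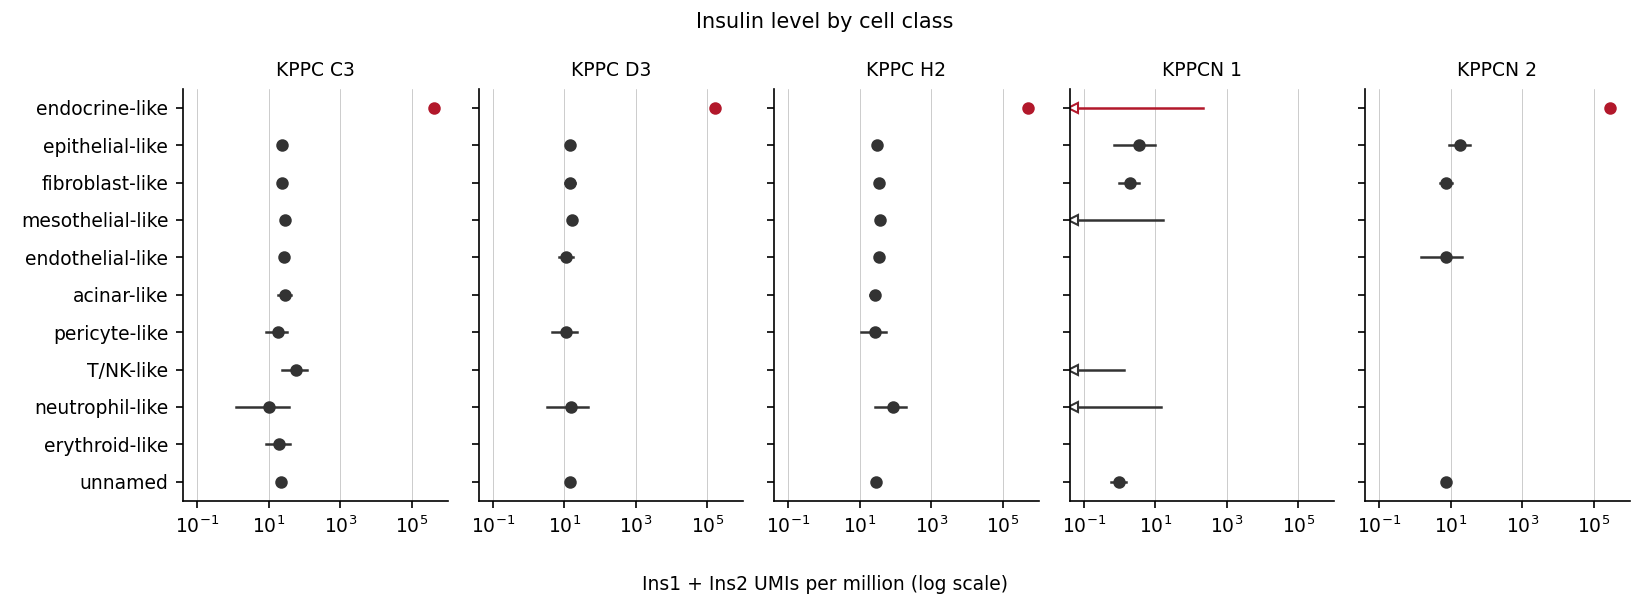
Ins1 and Ins2 CPM (log scale) in each cell class, one panel per library; points are sums over the class and lines exact 95% Poisson intervals, which are shorter than the point where none is seen. Open triangles mark 0 UMIs, with the line running to the upper limit; classes of fewer than 20 cells are left out except the endocrine-like one. Classes other than the endocrine-like one lie between 10.4 and 58.8 CPM in C3 and between 25.7 and 83.5 CPM in H2, and at most at 3.44 CPM in KPPCN 1.

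Tested over the 5 libraries, Ins2 was not distinguishable between epithelial-like and fibroblast-like cells: the log2 ratio of levels (CPM + 5) was 0.07 ± 0.31 (SD, n = 5), higher in 3 of 5 libraries (exact sign-flip permutation test, two-sided, p = 0.625). The log2 ratio of Ins1 was 0.21 ± 0.41 (exact p = 0.438, n = 5) and that of Iapp 0.04 ± 0.15 (exact p = 0.625, n = 5). Adjusted over the 4 genes tested in this way, including Pyy, these p-values were all 0.625, and 0.0625 is the smallest this design allows. Iapp stood at 4.83 CPM or less in both classes of every library, under the 5 CPM added to each side. It had 0 UMIs in both classes of KPPCN 1, and 1 and 3 UMIs in KPPCN 2. The Iapp ratio was therefore held near 0 and cannot show that the levels were equal. In KPPCN 1 the same holds for Ins1 (1.15 against 0.69 CPM) and Ins2 (2.29 against 1.21 CPM). The added 5 CPM also draws the other ratios toward 0. By gene, epithelial-like cells stood above fibroblast-like cells in some KPPC libraries and below in others, for Ins2 at 13.9 against 12.9 CPM in C3, 7.89 against 10.6 in D3 and 19.4 against 22.6 in H2. The share of cells with an Ins2 UMI, 27.1% of epithelial-like and 21.4% of fibroblast-like cells in C3, was 1.91% (10 of 523) and 1.16% (12 of 1031) when each cell was thinned to 1000 UMIs, with 2 and 5 shallower cells left out. These thinned shares have overlapping exact binomial intervals, 0.92 to 3.49% and 0.60 to 2.02%.

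The Ins1 share outside the endocrine-like cluster lay near that of the insulin-high cells in C3, H2 and KPPCN 2, and lower in D3. The share inside is a sum over few cells, weighted by their UMIs. In C3 the 5 cells ranged from 27.4 to 67.0%, and the cell with 39587 insulin UMIs stood at 45.0%. In KPPCN 2 the 2 cells stood at 55.8 and 64.6%. The intervals cover counting error only, not this spread between cells. In KPPC C3, Ins1 made up 46.65% of insulin UMIs in the insulin-high cells and 46.8% (exact binomial interval 44.5 to 49.1) in the cells outside the endocrine-like cluster. In KPPC H2 the values were 35.3% and 33.4% (31.1 to 35.9). In KPPCN 2 they were 63.2% and 62.7% (57.7 to 67.4). KPPC D3, with 1 insulin-high cell, had 46.7% and 42.4% (39.5 to 45.4), so there the interval outside did not hold the value inside. KPPCN 1 had 15 Ins1 and 16 Ins2 UMIs in all and no insulin-high cell to set them against. Among the 4 libraries with both values, KPPCN 2 was highest and H2 lowest both inside and outside.

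**Figure D3:**
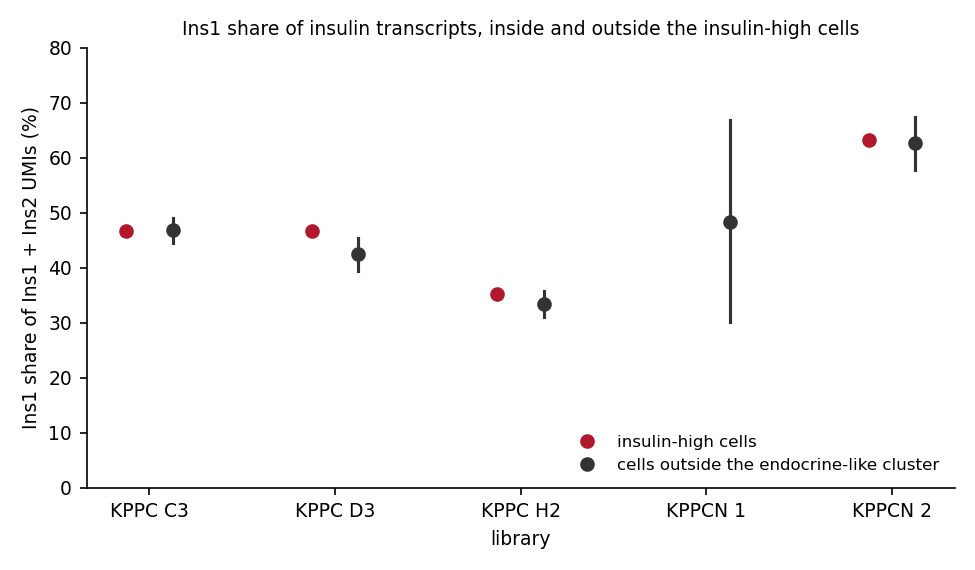
Ins1 as a percentage of Ins1 and Ins2 UMIs in each library, in insulin-high cells (red) and in all cells outside the endocrine-like cluster (black); lines are exact 95% binomial intervals. The values inside and outside are 46.65 and 46.8% in KPPC C3, 35.3 and 33.4% in H2 and 63.2 and 62.7% in KPPCN 2, and KPPCN 1 had no insulin-high cell.

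Iapp stood in a similar but not equal ratio to insulin inside and outside. For every 100 insulin UMIs, insulin-high cells held 17.1, 15.2 and 14.3 Iapp UMIs in KPPC C3, D3 and H2 and 28.9 in KPPCN 2. Outside the endocrine-like cluster the same ratio was 11.3, 18.6, 13.0 and 22.6. Iapp as a percentage of the 3 transcripts was lower outside than inside in C3 (10.1%, interval 8.87 to 11.5, against 14.6%) and higher outside in D3 (15.7%, 13.8 to 17.8, against 13.2%). In H2 the interval outside (10.0 to 13.1%) held the 12.5% inside, and in KPPCN 2 (15.1 to 22.1%) it did not reach the 22.4% inside. In D3, some endocrine-like cells carried Iapp without much insulin: one had 102 Iapp UMIs beside 26 Ins1 and 50 Ins2 UMIs, another 48 Iapp and no insulin UMI, and another again 14 Iapp and none.

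Pyy had another pattern. Its all-cell level was 49.2, 142.8 and 43.2 CPM for KPPC C3, D3 and H2 in turn, 0.0364 in KPPCN 1 (1 UMI) and 19.5 in KPPCN 2. In the KPPC libraries, epithelial-like cells held 66.04%, 79.7% and 75.3% of all Pyy UMIs and endocrine-like cells 25.2%, 16.7% and 18.4%. In KPPCN 2 the shares were 22.3% and 76.1%. The level in epithelial-like cells was 195.1, 365.2 and 114.4 CPM in C3, D3 and H2, against 6.723, 3.799 and 0.732 in fibroblast-like cells. KPPCN 1 had 0 Pyy UMIs in 85 epithelial-like cells, which allows up to 4.22 CPM. KPPCN 2 stood at 416.7, but 226 of its 230 UMIs came from 1 of 27 cells. The log2 ratio of epithelial-like over fibroblast-like cells was 4.02 ± 2.43 (SD, n = 5), higher in 4 of 5 libraries, with a two-sided exact sign-flip p of 0.125 (0.5 adjusted over the 4 genes). Without the Pyy-high cells defined next, which were picked by their Pyy UMIs, the log2 ratio was 0.63. That fall follows from the choice of cells and is not a test.

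A minority of epithelial-like cells held nearly all of the Pyy. Cells with 5 or more Pyy UMIs, a threshold set after the values were seen, made up 42 of 525 (8.00%), 113 of 795 (14.2%) and 21 of 579 (3.63%) epithelial-like cells of KPPC C3, D3 and H2. They held 97.2%, 98.1% and 96.6% of the class's Pyy UMIs. In fibroblast-like cells of the same libraries the counts were 2 of 1036, 0 of 178 and 0 of 399. The Pyy-high epithelial-like cells of KPPC ranged from 5 to 606 UMIs with a median of 32, a further 50, 118 and 38 cells had 1 to 4 UMIs, and the term is used for a range of values, not for a cell type. Outside the epithelial-like and endocrine-like classes, 4.26%, 10.1% and 2.79% of the cells of C3, D3 and H2 also held a Pyy UMI. Pyy-high cells were deeper, with medians of 24301, 28363 and 27178 UMIs against 18696, 18535 and 19174 in the epithelial-like cells without Pyy. The part of this depth difference in the threshold of 5 UMIs, and in comparisons of these cells, was not tested. Thinning was used only to compare classes. Thinned to 1000 UMIs, the share of epithelial-like cells with a Pyy UMI was 6.31%, 10.96% and 1.90% in KPPC (17.5%, 29.1% and 10.2% before thinning). The same share in fibroblast-like cells was 0.097% in C3 (1 of 1031) and 0% in D3 and H2 (0 of 174 and 0 of 396).

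**Figure D4:**
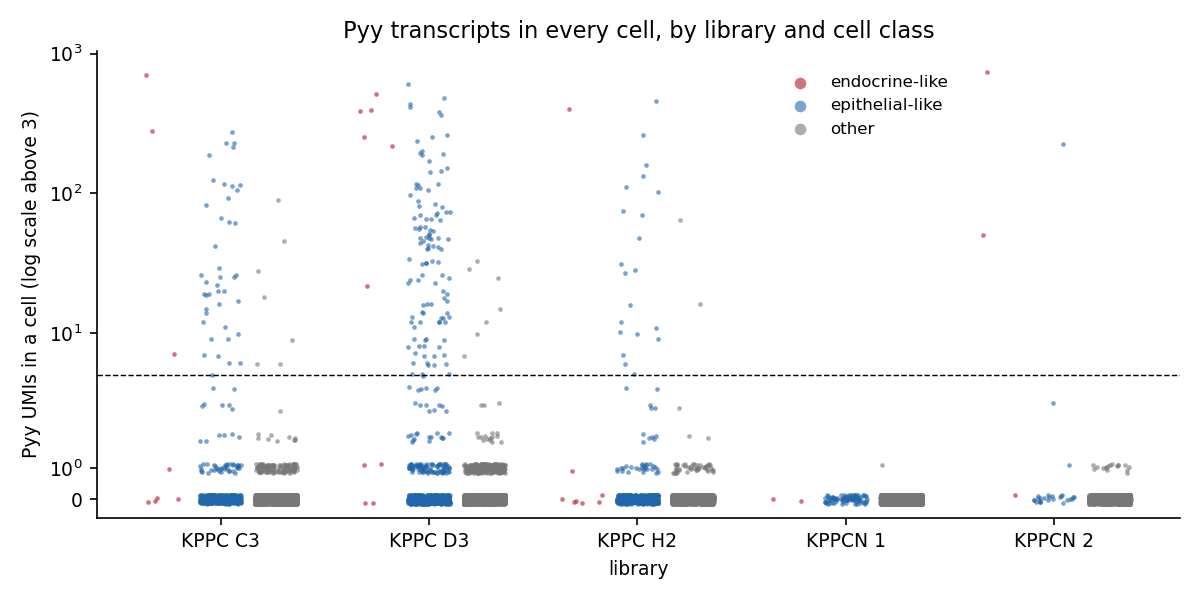
Each point is a cell; the vertical axis gives its Pyy UMIs (log scale above 3) and the horizontal axis the library, with endocrine-like cells in red, epithelial-like cells in blue and all others in grey, and small random shifts so that points can be seen. The dashed line marks 5 UMIs. On or above it lie 42, 113 and 21 epithelial-like cells in KPPC C3, D3 and H2, 0 in KPPCN 1 and 1 in KPPCN 2.

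Over all classes there were 205 Pyy-high cells: 177 epithelial-like, 12 endocrine-like, 2 fibroblast-like and 14 in clusters without a name. Of the 16 in the last 2 sets, 15 held an Epcam UMI. Both fibroblast-like ones also held Krt19 (31 and 20 UMIs) at totals of 34467 and 32039 UMIs, and their doublet scores (0.321 and 0.374) were the highest of the 16. A KPPC D3 cell of 1014 UMIs came next at 0.307, and the doublet caller is taken below as not having worked. Of the 177 epithelial-like cells, 138 were in the cluster led by Tph1, Krt17 and Cldn4 and 39 in the cluster led by Tff2, Tff1 and Gkn1.

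Epithelial-like and endocrine-like Pyy-high cells carried different transcripts beside Pyy. In KPPC, the 8 endocrine-like cells with Pyy but under 100 insulin UMIs held a median of 336.5 Pyy UMIs and at least 22, or 34008 CPM over the 8 (6 of them from D3), against 1916 CPM over the 176 epithelial-like cells. The LIM homeobox gene Isl1, made in islet and enteroendocrine cells, had a UMI in 7 of 8 endocrine-like and 2 of 176 epithelial-like cells. Iapp had a UMI in 5 of 8, at 2569 CPM, against 4.28 CPM in the epithelial-like cells. Krt19, a duct keratin, stood at 27.5 and 2238 CPM in the same order. Tph1, the enzyme that starts serotonin synthesis, had 0 UMIs in the 8 cells, which allows up to 50.7 CPM, and 331.0 CPM in the 176, of which 113 held a UMI. Since the clusters were formed from these genes other than Pyy and Iapp, the values are a description with no test.

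**Figure D5:**
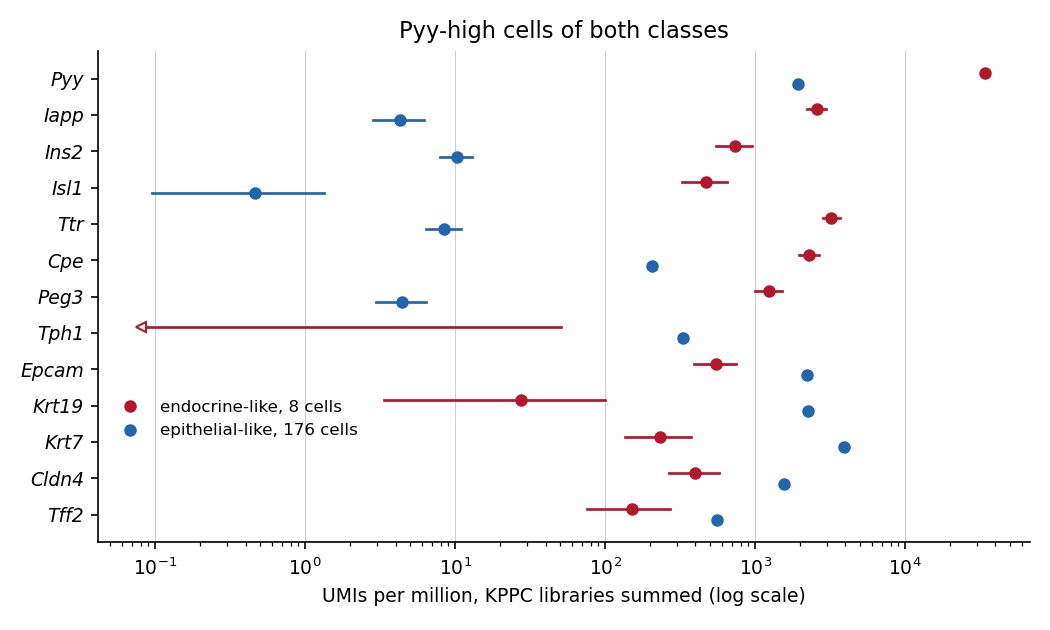
CPM (log scale) of 13 genes in Pyy-high cells of the KPPC libraries, summed over 8 endocrine-like cells without high insulin (red) and 176 epithelial-like cells (blue), with exact 95% Poisson intervals; the open triangle marks 0 UMIs. The red cells carry Isl1 at 467.2 CPM against 0.459 in the blue cells, and the blue cells carry Krt19 at 2238 against 27.5.

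Which genes differed between Pyy-high and no-Pyy epithelial-like cells was asked within the 3 KPPC libraries, a comparison added after the data were seen. Summed by library and fitted with limma with the library as a block, 1408 of 11158 genes other than Pyy were called at an adjusted p under 0.05 (12.6%), 608 higher (5.45%) and 800 lower. Without KPPC D3 the count was 668, and within the cluster led by Tph1, Krt17 and Cldn4 alone it was 849. Of the Pyy-high cells 137 were in that cluster and 39 in the one led by Tff2, Tff1 and Gkn1, against 725 and 792 of the cells without Pyy. Tph1 was 2.87 higher on the log2 scale (SE 0.27, limma adjusted p = 1.58e-04). It stood at 525.9 against 25.03 CPM in C3, 304.9 against 56.6 in D3 and 121.5 against 20.1 in H2, higher in 3 of 3. The keratin gene Krt16 was 2.24 higher (SE 0.23, limma adjusted p = 2.09e-04) and the transcription factor gene Sox11 2.097 higher (SE 0.15, adjusted p = 3.89e-05). The neural adhesion gene Ncam1 was 1.84 higher (SE 0.14, adjusted p = 4.79e-05). Several genes that lead the other cluster or are known from gastric mucus cells were lower: the log2 differences were -4.45 for the trefoil factor gene Tff1 (SE 0.32, adjusted p = 3.79e-05), -2.89 for Tff2 (SE 0.11, adjusted p = 3.86e-07), and -3.77 and -4.00 for the gastrokine genes Gkn1 and Gkn2, each lower in 3 of 3 libraries. Tff2 stood at 737.4, 519.2 and 424.5 CPM in the Pyy-high cells against 6081, 3297 and 2976 in the others. These genes were named after their values were seen. The balance of the calls depended on the scaling: on unscaled totals 750 were higher and 648 lower.

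For insulin, no difference between the same cells passed the test. Pyy-high and no-Pyy epithelial-like cells held 23.9 and 24.0 insulin CPM in C3, 12.9 and 13.1 in D3 and 34.1 and 30.0 in H2. The log2 difference was -0.02 for Ins1 (SE 0.15, limma adjusted p = 0.958), -0.02 for Ins2 (SE 0.16, adjusted p = 0.948) and 0.17 for Iapp (SE 0.17, adjusted p = 0.575). In the lists of endocrine genes, calls went both ways. Of the 3 prohormone processing and granule genes tested, 0 were called, of 4 beta cell genes 1 rose (Igf1r) and 1 fell (Pdx1, log2 difference -0.56, SE 0.15, adjusted p = 0.0351), and of 7 genes of other islet and gut endocrine cells 2 rose (Tph1 and Gc) and 2 fell (Ttr and Rbp4). The median log2 difference was -0.13, -0.48 and -0.16 in the 3 lists and -0.02 over all genes. Most genes of these lists are not listed for KPPC and so could not be tested.

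The endocrine-like cells could be sorted by what they carried. Among the 31, 9 were insulin-high without Pyy, 4 were insulin-high with 5 or more Pyy UMIs, 8 had Pyy without high insulin, and 10 had neither. The 9 had at most 1 Pyy UMI each. Among the 4 with both, a cell of KPPC C3 held 2207 Ins1, 1087 Ins2 and 706 Pyy UMIs and another held 7 Pyy UMIs beside 39587 insulin UMIs. The 10 cells with neither had few signs of an endocrine cell: 1 held an insulin UMI, 0 held an Isl1 UMI and 4 held a Cpe UMI. Both endocrine-like cells of KPPCN 1 were of this kind and carried 0 UMIs of every member.

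KPPCN 2 is the only library in which all 9 genes can be read in insulin-high cells. Its first such cell held 1424 Ins1, 1129 Ins2, 2664 Iapp, 319 Ppy, 736 Pyy, 78 Chga and 375 Chgb UMIs. The second held 8646 Ins1, 4743 Ins2, 1944 Iapp, 584 Ppy, 50 Pyy, 81 Chga and 69 Chgb UMIs. Both cells thus carried transcripts of beta cell and PP cell hormones together, and whether each droplet held more than one cell was not tested. Sst had 0 UMIs in both, and Gcg 0 and 1. The pair held 97.8% of the library's 923 Ppy UMIs, 88.8% of its 179 Chga UMIs and 96.9% of its 458 Chgb UMIs, and 76.1% of its 1033 Pyy UMIs. The 20 Ppy UMIs elsewhere were spread over 19 cells. The 20 Chga UMIs elsewhere were in 12 cells with at most 5 in a cell, and 9 of them were in 3 endothelial-like cells.

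Gcg was distributed in another way. Of its 22 UMIs in KPPCN 2, 21 were in 18 cells other than the insulin-high pair, with at most 2 in a cell. Relative to Ins2, Gcg stood at 1.70e-04 in the insulin-high cells and 0.141 elsewhere. For Ppy the same ratios were 0.154 and 0.134. In KPPCN 1, Gcg had 7 UMIs, 6 of them in 1 T/NK-like cell with no insulin UMI. Sst had 1 UMI in KPPCN 2, and Iapp, Sst, Ppy and Chga had 0 in KPPCN 1, which allows up to 0.134 CPM.

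Genes of the hormone pathway accompanied the hormones in the KPPCN 2 pair. Of 13 genes of prohormone processing and granules, 12 stood higher in the 2 insulin-high cells than in the rest of the library, as did 16 of 20 beta cell genes and 5 of 22 genes of other islet and gut endocrine cells, 17 of which had 0 UMIs in both cells. Of all 20043 genes with a UMI in KPPCN 2, 17.1% stood higher in the pair. The comparison has 1 library and no test. Insulin took up 10.3 to 59.9% and Iapp 4.60 to 16.6% of the UMIs of insulin-high cells. This lowers the CPM of every other gene in those cells, in the counts above and in the values below, which were not corrected for it. Cpe, the carboxypeptidase that trims cut hormones, could be read in every library: it stood at 1686, 938.4 and 1540 CPM in the insulin-high cells of KPPC C3, D3 and H2 and 1724 in those of KPPCN 2, against 147.4 to 169.8 elsewhere. Pam, which amidates peptides, stood at 454.3, 648.0, 212.9 and 701.2 in the same cells, against 53.5 to 94.2 elsewhere. Pcsk1n, an inhibitor of the convertase Pcsk1, stood at 4055 in the KPPCN 2 pair and 24.4 elsewhere. Of the beta cell genes, Ero1lb, which helps proinsulin fold, stood at 438.9, 312.8, 232.7 and 208.5 CPM in the insulin-high cells of the 4 libraries and at 2.90 to 4.06 elsewhere. Igf1r, an insulin-like growth factor receptor gene, stood at 61.6, 156.4, 39.6 and 56.8 in the same cells and at 47.8 to 63.8 elsewhere. Npy, a neuropeptide gene, varied: it stood at 284.9 against 71.5 in C3, 0 against 63.5 in D3, 9.90 against 101.5 in H2 and 37.9 against 208.1 in KPPCN 2. Ttr, abundant in alpha cells and also made in other islet cells, stood at 269.5, 290.5, 415.8 and 322.2 against 0.528 to 12.4 elsewhere. The retinol carrier gene Rbp4 stood at 46.2 against 37 CPM in C3, 223.4 against 29.1 in D3, 59.4 against 28.1 in H2 and 303.2 against 52.2 in KPPCN 2. The next 4 genes were chosen after their values were seen. Pcsk2, a convertase that cuts prohormones, stood at 3847 CPM in the pair and 0.359 elsewhere. The granin gene Scg2 stood at 3525 and 0.283. Among beta cell genes, Abcc8, a subunit of the potassium channel that couples glucose to secretion, stood at 379.0 and 0, and the maturity marker Ucn3 at 189.5 and 0.

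The hormones were lower in KPPCN than in KPPC tumours on average, but none passed the test. In sums over all cells, fewer hormone-bearing cells and less hormone RNA per cell cannot be told apart. Over all cells, 126 of 11413 genes were called between the genotypes with limma (1.1%), 13 higher and 113 lower in KPPCN, and 0 of the 4 members. Ins1 stood at 393.0, 149.3 and 767.8 CPM in KPPC against 0.547 and 194.5 in KPPCN, so that KPPCN 2 lay within the KPPC range. The log2 difference of Ins1 was -3.46 (SE 1.54, limma adjusted p = 0.308). Ins2 stood at 449.4, 171.7 and 1411 in KPPC and 0.583 and 113.5 in KPPCN, both below the KPPC libraries, with a log2 difference of -4.25 (SE 1.45, limma adjusted p = 0.221). Iapp stood at 142.5, 51.2 and 311.4 in KPPC and 0 and 88.6 in KPPCN (log2 difference -2.69, SE 1.34, adjusted p = 0.347). Pyy, with both KPPCN libraries below all of KPPC, differed by -2.73 (SE 0.79, limma adjusted p = 0.165). The share of epithelial-like cells, which held most Pyy in KPPC, moved with it (20.5% in KPPC and 1.46% in KPPCN), and its part in the difference was not tested. Without the 13 insulin-high cells the differences were -0.94 for Ins1, -1.48 for Ins2, -0.63 for Iapp and -3.31 for Pyy, with limma adjusted p-values of 0.0696 to 0.172. The calls across all genes rested on single libraries: leaving out C3, D3 or H2 gave 0 called genes each, leaving out KPPCN 1 gave 4221 and leaving out KPPCN 2 gave 439. In the last pair the KPPCN side is 1 library, which is assumed to vary as the KPPC libraries do, as it is in the next values. Without the shallow KPPCN 1 the differences were -0.89 for Ins1, -2.06 for Ins2, -0.59 for Iapp and -1.60 for Pyy, with limma adjusted p-values of 0.113 to 0.642. Without KPPCN 2, Ins1 passed the threshold (-6.02, limma adjusted p = 0.0423) with the shallow KPPCN 1 as the only KPPCN library. Of the 3 processing and granule genes tested 0 were called, of the 4 beta cell genes 0 and of the 7 other endocrine genes 0.

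Within epithelial-like cells, 0 of 11286 genes were called with limma (0%), with 1105 at an unadjusted p under 0.05. The log2 differences of KPPCN minus KPPC were -0.58 for Ins1 (SE 0.42, limma adjusted p = 0.644), -0.96 for Ins2 (SE 0.53, adjusted p = 0.575), -0.52 for Iapp (SE 0.22, adjusted p = 0.510) and -2.47 for Pyy (SE 1.42, adjusted p = 0.577). Without KPPCN 1 the Pyy difference turned to 0.93 and that of Ins1 to 0.19, and the KPPCN side then rested on 27 cells, of which 1 held nearly all Pyy. Epithelial-like cells were 20.5% ± 5.71 (SD, n = 3) of cells in KPPC and 1.46% ± 0.17 (SD, n = 2) in KPPCN, which leaves 112 such cells in KPPCN.

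For shares of cells the numbers were small. Endocrine-like cells numbered 8 (0.212%), 10 (0.306%) and 8 (0.321%) in the KPPC libraries, against 2 (0.0372%) in KPPCN 1 and 3 (0.149%) in KPPCN 2. The means were 0.280% ± 0.059 (SD, n = 3) and 0.0933% ± 0.079 (SD, n = 2), both KPPCN libraries below all of KPPC (two-sided exact permutation p = 0.1, the smallest the design allows, 0.3 adjusted over 3 shares). Of these cells, 2, 3 and 2 in C3, D3 and H2, 2 in KPPCN 1 and 1 in KPPCN 2 were neither insulin-high nor Pyy-high. Counting only the insulin-high or Pyy-high ones, the difference was -0.155 percentage points, KPPCN minus KPPC (two-sided exact permutation p = 0.1). That count was chosen after the values were seen. Counted by single cells with endocrine markers in place of the cluster, the difference turned to 0.079 percentage points higher in KPPCN. For that, 3 of 16 markers were listed for KPPC and 16 for KPPCN. Insulin-high cells were 0.121% ± 0.086 and 0.0498% ± 0.070 of cells (exact permutation p = 0.4, adjusted 0.4). Pyy-high cells were 8.61% ± 5.32 of epithelial-like cells in KPPC and 1.85% ± 2.62 in KPPCN (exact permutation p = 0.3, adjusted 0.4). KPPCN 1, with 0 insulin-high cells among 5371, allows a share of up to 0.0559%, and its 0 Pyy-high among 85 epithelial-like cells allow up to 3.53%. These limits hold for cells past the threshold at its depth: its epithelial-like cells had a median of 6013 UMIs, against 19649 to 21206 in KPPC.

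Over 30 sums of named classes by library, the genes most like Pyy among 11413 were Trim15 (Pearson r = 0.917), Gm34425 (0.899) and Nectin4 (0.889). Those most like Ins1 were Zfp959 (0.761), Spata1 and Amd2, and for Ins2 they were Rbm3 (0.645), Btbd10 and Btf3. For Iapp they were 2510017J16Rik (0.744), Gm16740 and Gm14327. The endocrine-like cells were too few to form a sum, so for insulin and Iapp these values compare levels outside those cells. Ins1 and Ins2 had r = 0.682 with each other, and Pyy had 0.127 with Ins1. Sums share libraries, depth and cell composition, and the correlations are given as a description.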

How the data were processed

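Droplet libraries (10x 3′ V3, 98-base reads per the labels' protocols) of 3 KPPC and 2 KPPCN tumours were analysed. The KPPC codes (C3, D3, H2) match no replicate number of the labels. Per the submitters' processing notes, Cell Ranger (2.1.0), Seurat (3.0.2), R (3.5.1) and GRCm38 were used, with no role given. The authors deposited natural log values, and exp(value) - 1 sums to 10000 in a cell. UMIs were recovered from each cell's smallest step (100% whole within 0.01). Barcodes under 500 genes or over 20% mitochondrial UMIs were dropped (801 of 17771). A doublet caller marked 59 of 16970 cells (0.348%), which were left out; at under 0.5% it has not worked, so other doublets may remain.

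Cells were clustered without the 9 members (scanpy 1.11.5, Leiden, resolution 1, 2000 variable genes, 30 components), and a cluster was named where at least 3 markers were raised 2-fold, their mean log2 fold over other cells was at least 1.5 and led the next class by 0.5, and its top 10 genes, doublet calls and depth did not go against the name. The members, marker lists and gene lists were chosen with earlier results of these data known. Named genes were the members, the 3 genes most like each, and the 3 genes of each list highest in endocrine-like cells; others are said to be chosen later. One gene that this rule names is not reported here.

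UMI counts per library were tested with limma 3.58.1 on log2(CPM + 5), with trimmed-mean scaling, counting-error weights and a correction for counting error, over the 11413 genes above 0 in every KPPC library, with Benjamini-Hochberg adjustment. The test was checked on simulated counts with the same spread set for all genes and libraries. That check does not cover genes that vary more between libraries, such as Ins1. This scale understates changes of low genes. The planned test within endocrine-like cells was not run, since it needed 20 such cells in a library and the most was 10. Sequences are from GENCODE vM21 and RefSeq; the Ins2 promoter is not used here. Libraries are taken as separate mice, as the labels describe. Intervals and zero limits (3 counts for shares, Poisson bounds for levels) cover counting error only.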

Additional observations from a re-analysis of the deposited data

Results flagged for a closer look

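Members that only the KPPCN table lists carried signal outside the comparison of genotypes. In KPPCN 2, Ppy had 923 UMIs, Chgb 458 and Chga 179, of which the 2 insulin-high cells held 97.8%, 96.9% and 88.8%. The 22 Gcg UMIs of that library were nearly all in other cells. In KPPCN 1, Gcg had 7 UMIs, of which 6 were in 1 T/NK-like cell of 3120 UMIs. No group had more than 3 libraries, so single libraries were not tested as outliers.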

How the results depend on the processing

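Genes called between genotypes over all cells numbered 0 to 4221 when single libraries were left out, and 5 with at least 1000 genes per cell. In epithelial-like cells they numbered 0 to 1. Leaving out single libraries gave log2 differences in epithelial-like cells of -1.12 to 0.19 for Ins1 and -5.38 to 0.93 for Pyy. The endocrine-like share reversed to 0.079 with the per-cell marker gate. The Ins2 log2 ratio of epithelial-like over fibroblast-like cells ran from -0.036 (without KPPCN 2) to 0.16 as libraries were left out. It was -0.10 at resolution 2 and -0.14 against T/NK-like and neutrophil-like cells. Genes called between Pyy-high and no-Pyy epithelial-like cells numbered 668 (without KPPC D3) to 1544, and 849 within 1 cluster. The cause was not tested. Tph1 stayed called under 12 of 12 alternatives (2.28 to 3.27). Ins2, Iapp and Pyy over all cells stayed uncalled and negative under 13 of 13 alternatives each. At resolution 0.5, where the endocrine-like cells joined an epithelial-like cluster, the Ins2 ratio was 5.88, and 0.07 without insulin-high cells. The endocrine-like share has no value at resolutions 0.5 and 2, which gave no such class, and the endocrine-like fit was not run. Alternatives on insulin-high and Pyy-high cells were chosen after seeing the data. No paired analysis was possible because the KPPC libraries carry no replicate number. The depth and cell make-up of KPPCN 1 and the 112 epithelial-like KPPCN cells limit what those comparisons can show.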
